A study of Mus musculus with 24 samples.

Results

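The effect of experimental autoimmune myocarditis (EAM) on the heart transcriptome was compared between D15 and D21 after immunization. For each gene the quantity tested was the difference (D21 EAM minus D21 control) minus (D15 EAM minus D15 control), so that a value below 0 means a lower EAM effect at D21 than at D15 and a value above 0 a higher one. Genes are said to have risen or fallen where this difference passed the limits given below, and differences are in log2 units with their standard error (SE). The comparison used 16 of the 24 hearts of the series, 4 in each of the groups D15 control, D15 EAM, D21 control and D21 EAM, with each heart in its own library. All were wild type male BALB/cAnNCrl mice, immunized at 8 to 10 weeks of age. EAM mice were injected on days 0 and 7 with an emulsion of SCFA (supplemented complete Freund's adjuvant) and 100 µg of a peptide of cardiac α-myosin heavy chain, and control mice with SCFA and PBS, while every mouse, control or EAM, also received pertussis toxin on day 0. RNA came from a frozen portion of each heart, and the sources used here do not give its site in the heart. EAM samples were chosen with a view to the presence of inflammation. Of 41388 genes in the table, 16176 had 10 or more reads in 4 or more of the 16 hearts and were tested.

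Mice given this peptide mount a CD4+ T cell response against cardiac myosin. Monocytes, macrophages, neutrophils and T cells then enter the myocardium, attracted by chemokines, and the inflamed phase passes into fibrosis. Ventricular heart muscle draws most of its ATP from fatty acid oxidation in mitochondria, so genes of the respiratory chain, of beta-oxidation and of the contractile apparatus make up much of its messenger RNA. In RNA from whole tissue, fewer cells of a type and less RNA per cell cannot be told apart.

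The 16 libraries held between 15814863 and 24980864 counted reads. Between 3.19% and 4.31% of the reads of D15 EAM hearts fell in mitochondrially encoded genes, against 6.10% to 7.14% in D15 controls, 3.91% to 6.77% in D21 EAM hearts and 5.45% to 5.79% in D21 controls. The labels give the D21 EAM libraries a code of their own, while the 12 others share another code. The D21 EAM group and its library code cannot be told apart, and no value within a code exists for the D21 effect. D15 control replicate 4 stood apart from the other D15 controls in atrial-type and adipocyte transcripts (values below). Cardiomyocyte transcripts were abundant in every group, with 1438 to 1583 CPM (read counts scaled to the TMM-normalised library size) of Tnnc1, cardiac troponin C, in D15 controls and 539 to 887 in D15 EAM hearts.

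The EAM effect was lower at D21 in 159 genes (0.983% of those tested) and higher in 295 (1.82%) by edgeR's quasi-likelihood test, where a call needed a Benjamini-Hochberg adjusted p (FDR) under 0.01 and a difference of 2-fold or more. Both sets lay mostly on the side of a return towards controls. Among the 159, the median EAM effect was 1.26 log2 units at D15 and 0.03 at D21, with 80 genes above controls at both days, 56 above at D15 and below at D21, and 23 below at both. Among the 295, the median was -1.38 at D15 and -0.13 at D21, with 214 genes below controls at both days and 79 below at D15 and above at D21. The other 2 higher genes, Serpinb1c and Ifi27l2b, were above controls at both days. At the same limits and in the same fit, 2290 genes (14.2%) were lower and 2824 (17.5%) higher in EAM than control hearts at D15, against 401 (2.48%) and 1601 (9.9%) at D21. Of the 295 higher genes 270 were among those lower at D15, and at D21 1 was lower and 3 were higher than controls. Of the 159 lower genes 90 were higher and 2 lower than controls at D15, and at D21 44 were lower and 8 higher. These counts share hearts with the difference itself and describe it.

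**Figure D1:**
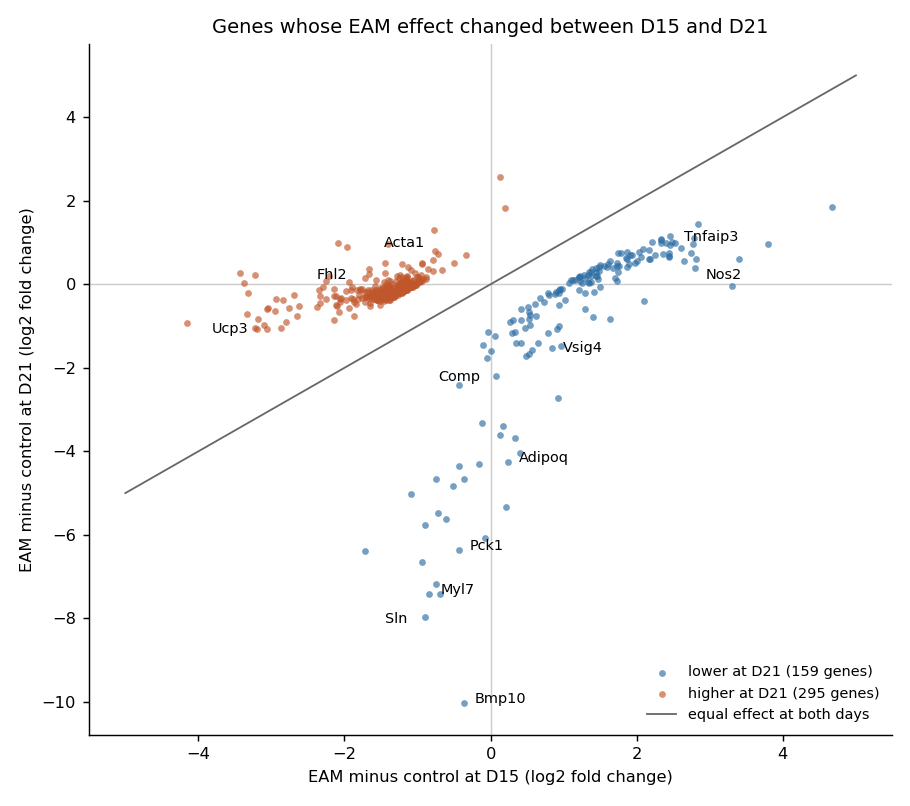
Each point is 1 of the 454 called genes, with its EAM minus control log2 fold change at D15 on the x axis and at D21 on the y axis. The 295 genes with a higher effect at D21 lie above the line of equal effects, mostly left of 0 at D15 and near 0 at D21, and the 159 with a lower effect lie below it, including a tail of atrial and adipocyte genes that reaches -10.03 at D21 (Bmp10).

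Between D15 and D21, 459 genes were lower (2.84%) and 557 higher (3.44%) in EAM hearts, while edgeR called 0 lower (0%) and 0 higher (0%) between the control groups, where 383 genes had an unadjusted p under 0.05. No other tool was run on the controls. The median change from D15 to D21 was -1.14 in EAM and 0.29 in control hearts over the 159 lower genes, and 1.07 and -0.14 over the 295 higher genes. All 4 D21 EAM hearts were below all 4 D15 EAM hearts in 154 of the 159 genes, and above them in 241 of the 295. The D21 controls were all above the D15 controls in 30 of the 159 and all below them in 54 of the 295. The genes were called from these same hearts, which favours such separation in both directions. The shares over all genes were not computed, so these counts describe the called genes only.

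Single hearts weighed on the counts. Without D21 EAM replicate 4 the counts were 841 lower and 1074 higher, and without D15 EAM replicate 3 they were 191 and 757. The higher count was under 295 by more than 1.5 times without D15 control replicate 1 (83 lower, 131 higher), 2 (42, 49), 3 (81, 144) or 4 (74, 88), without D15 EAM replicate 1 (74, 89), 2 (98, 92) or 4 (40, 57), without D21 control replicate 1 (54, 68), 2 (122, 178), 3 (47, 55) or 4 (74, 104), and without D21 EAM replicate 2 (63, 60) or 3 (110, 117). Without D21 EAM replicate 1 the counts were 120 and 251. When libraries were scaled by total counts in place of TMM, which moved the median of all genes from 0.00 to -0.15, 252 genes were lower and 154 higher, so the higher genes made up 37.9% of those called in place of 64.98%. Deviations of same-numbered control and EAM hearts correlated at 0.10 to 0.31 at D21. Hearts of unlike number were not compared, and the labels do not say what a number stands for. A block for the replicate number at D21, chosen after seeing the data, gave 483 lower and 283 higher genes. The planned replicate block within each day gave 0 lower and 0 higher by edgeR, with 6980 genes at an unadjusted p under 0.05 and 4329 at an FDR under 0.05. Without a block these numbers were 6839 (3133 lower, 3706 higher) and 4554. No other tool was run with a block.

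In their medians over the called genes the D21 EAM hearts lay farther apart than the D15 EAM hearts. Over the 159 lower genes the median level against same-day controls was between 1.05 and 1.19 on the log2(CPM + 1) scale in the 4 D15 EAM hearts. In D21 EAM replicates 1 to 4 it was -0.04, -0.14, -0.37 and 0.26. Over the 295 higher genes it was between -1.46 and -0.93 at D15, and -0.27, 0.09, 0.21 and -0.65 in D21 EAM replicates 1 to 4, so replicate 4 was nearest to D15 and replicate 3 farthest from it in both sets. Ptprc, which encodes the pan-leukocyte protein CD45, had 311, 261, 248 and 306 CPM in D15 EAM hearts and 152, 98.1, 49.9 and 233 CPM in D21 EAM replicates 1 to 4. Ptprc was at 16.9 to 21.1 CPM in D15 and 15.3 to 29.97 CPM in D21 controls. Its difference of -1.39 ± 0.47 (SE), FDR 0.0409, did not pass the limits.

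**Figure D2:**
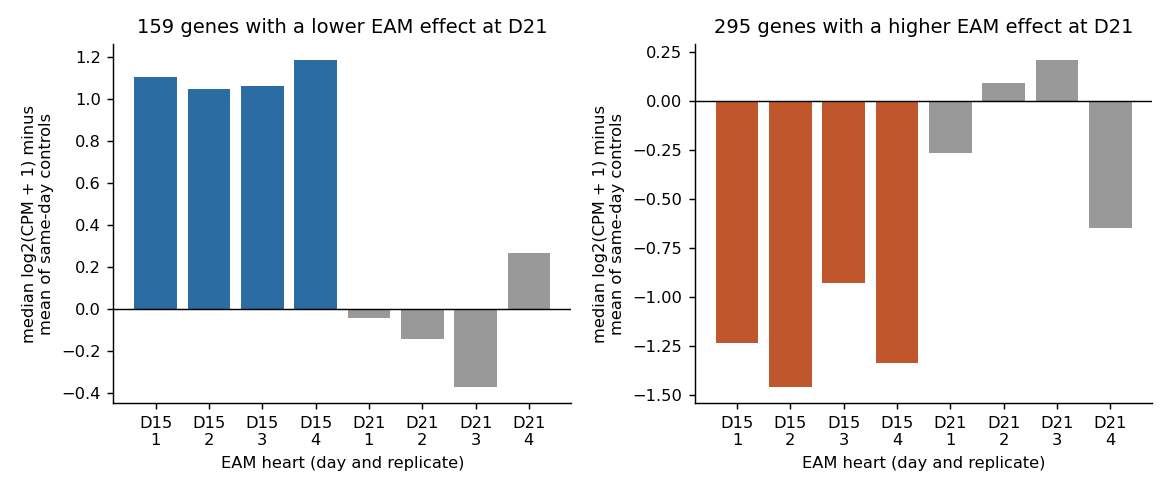
Bars give, for each EAM heart on the x axis, the median over the 159 lower (left) or 295 higher (right) genes of log2(CPM + 1) minus the mean of the 4 same-day controls, with D15 hearts coloured and D21 hearts grey. D15 hearts stand at 1.05 or above on the left and at -0.93 or below on the right, while D21 hearts lie between -0.37 and 0.26 on the left and between -0.65 and 0.21 on the right.

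Exon length moved with the difference. Genes split by summed exon length into 5 groups of about equal size had median differences of 0.23, 0.10, 0.00, -0.08 and -0.20 from the shortest to the longest, and median D21 effects of 0.18, 0.08, 0.02, -0.06 and -0.22. The median D15 effect stayed between -0.05 and 0.00 in all 5. The 158 lower genes with a length had a median of 6726.5 bases and the 293 higher genes one of 2186, beside 4054.5 over all 16084 genes with a length. With a correction for exon length, added after seeing the data, 63 genes were lower and 91 higher. Of the 60 calls of genes chosen by rule to be named, 32 held with this correction and 28 were lost.

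**Figure D3:**
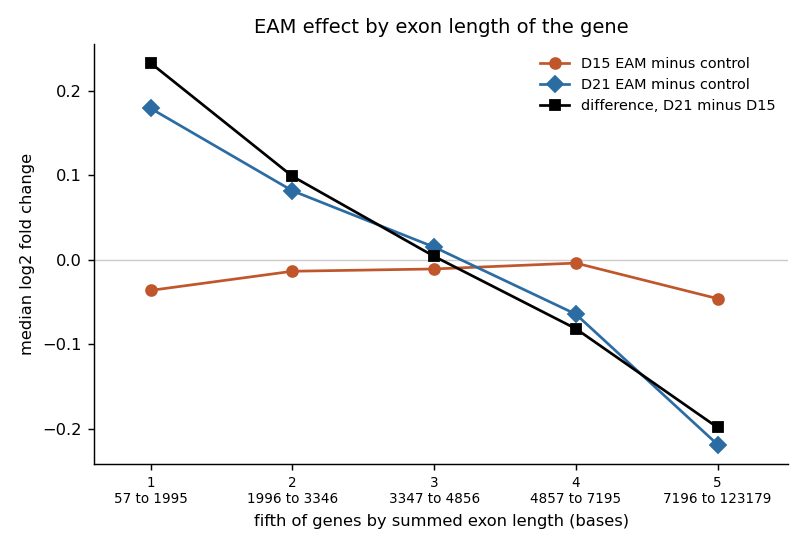
Median log2 fold change (y axis) of genes in 5 groups by summed exon length in bases (x axis), for the D15 effect, the D21 effect and their difference. The D15 line stays between -0.05 and 0.00, while the D21 line runs from 0.18 in the shortest genes to -0.22 in the longest.

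Nuclear-encoded subunits of the respiratory chain were higher together at D21 relative to D15. Of 65 tested, 24 were called higher and 0 lower (1.82% and 0.983% of all genes), and 63 passed an FDR under 0.05 without a fold limit, which 16.6% of all genes did in this direction and 11.5% in the other. All 65 differences were above 0, from 0.79 to 1.49, with a median of 1.04 against 0.00 over all genes. The median subunit was at -1.19 against controls at D15 and at -0.13 at D21. The summed level of the 65 was 37562 to 41358 CPM in D15 controls, 13011 to 23480.4 in D15 EAM hearts, 33541 to 38061 in D21 controls and 21878 to 40650.3 in D21 EAM hearts, so both EAM groups overlapped. The number called was 61 without D15 EAM replicate 3, 59 without D21 EAM replicate 4, 21 without D21 EAM replicate 1, 14 without D21 control replicate 2, and between 1 and 7 without any of the other 12 libraries. It was 8 with libraries scaled by total counts, 40 by the likelihood ratio test, 33 by DESeq2 and 18 by limma-voom. It was 1 with the exon length correction, under which the median was 0.85.

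Ndufb3, an accessory subunit of complex I (GRCm38 chromosome 1, 58586384 to 58595964, plus strand), was among the 24. It was at 154, 169.5, 153 and 172 CPM in D15 controls and 68.4, 59.7, 88.7 and 63.3 CPM in D15 EAM hearts. At D21 it was at 139.5, 152, 124 and 151 CPM in controls and 132, 172, 185 and 106 CPM in EAM hearts. All D15 EAM hearts lay below every other heart, and the D21 EAM hearts ran from below to above their controls. The difference was 1.28 ± 0.22 (SE), FDR 0.00282, and the D21 effect was 0.07 with an FDR of 0.739. Atp5l, subunit g of ATP synthase (difference 1.03 ± 0.20 (SE), FDR 0.00420), moved in the same way, with 84.7 to 118 CPM in D15 EAM and 129.6 to 222 CPM in D21 EAM hearts. Ndufb6, another complex I subunit, differed by 1.13 ± 0.22 (SE), FDR 0.00417. The calls of Ndufb3 and Ndufb6 were lost with the exon length correction, and those of Atp5l and Ndufb6 with total counts.

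Mitochondrially encoded genes had a similar median but a wider spread. All 15 tested had differences above 0 (median 1.09), and 5 passed an FDR under 0.05, which 16.6% of all genes did in this direction. By edgeR's quasi-likelihood test 0 were called, with 8 at an unadjusted p under 0.05 for a higher effect (3706 of all 16176 genes). The likelihood ratio test called 3, DESeq2 2 and limma-voom 0. The number called was 2 without D15 EAM replicate 3, 1 without D21 EAM replicate 4 and 0 without any other library. mt-Co1, a catalytic subunit of complex IV, was at 7240.1, 6131, 8501 and 6481 CPM in D15 EAM hearts and 9066, 12202, 15349.7 and 9509 CPM in D21 EAM hearts. Its D15 effect was -0.97 and its D21 effect -0.01, a difference of 0.96 ± 0.40 (SE), FDR 0.0799.

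Fatty acid genes moved less evenly. Of 29 genes of fatty acid uptake and beta-oxidation, 3 were called higher (1.82% of all genes were) and 17 had an FDR under 0.05 in that direction (16.6% of all genes), while Cpt1a, the liver-type carnitine palmitoyltransferase, had one in the other (difference -0.59). The number called was 18 without D15 EAM replicate 3, 15 without D21 EAM replicate 4 and 0 or 1 without any other library. It was 0 with the exon length correction, 1 with limma-voom or total counts, and 5 by the likelihood ratio test or DESeq2. The median of the 29 was 0.99. Fabp3, the heart fatty acid binding protein, was at 1498, 1551, 1405 and 1600.2 CPM in D15 controls and 543, 359, 753 and 471 CPM in D15 EAM hearts, against 1284, 1378, 1176 and 1356 CPM and 1052, 1396, 1512 and 686 CPM at D21. The D15 groups did not overlap and the D21 groups did, and the difference was 1.35 ± 0.33 (SE), FDR 0.00975. Acot13, an acyl-CoA thioesterase of mitochondria, differed by 1.35 ± 0.26 (SE), FDR 0.00379. Ucp3, a mitochondrial uncoupling protein, was at 26.7 to 91.1 CPM in D15 controls and 3.27 to 8.26 CPM in D15 EAM hearts. At D21 it was at 34.5 to 70.5 CPM in controls and 17.1 to 34.0 CPM in EAM hearts, all 4 still below every control. Its difference was 2.35 ± 0.56 (SE), FDR 0.00938. With the replicate block at D21 the calls of Fabp3 (FDR 0.0124) and Ucp3 (FDR 0.0110) were lost. These calls and that of Acot13 were lost with the exon length correction.

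Of 20 genes of branched-chain amino acid breakdown 2 were called higher (1.82% of all genes were), Hibch (difference 1.33 ± 0.27 (SE), FDR 0.00507), which acts in valine breakdown, and Hsd17b10 (1.004 ± 0.23 (SE), FDR 0.00765), which acts in isoleucine breakdown. Their list had a median of 0.76, and 7 were called without D15 EAM replicate 3, 4 without D21 EAM replicate 4 and 0 or 1 without any other library. With the exon length correction, total counts or DESeq2 1 was called. The tricarboxylic acid cycle had a median of 0.90 over 15 genes, of which 10 had an FDR under 0.05 in that direction (16.6% of all genes). By edgeR's quasi-likelihood test 0 of the 15 were called and 14 had an unadjusted p under 0.05 for a higher effect (3706 of all 16176 genes). The likelihood ratio test and DESeq2 each called 4, and limma-voom 0, while edgeR called 9 without D15 EAM replicate 3, 8 without D21 EAM replicate 4 and 0 without any other library. Among 16 regulators of mitochondrial and lipid metabolism Rxrg, the retinoid X receptor gamma, was the 1 called (1.82% of all genes were), with 101.4, 115, 100.3 and 114 CPM in D15 controls, 25.4, 16.6, 37.1 and 23.8 CPM in D15 EAM hearts and 60.6, 89.7, 106 and 34.7 CPM in D21 EAM hearts. Its difference was 1.63 ± 0.38 (SE), FDR 0.00878. With the replicate block at D21 the calls of Hsd17b10 (difference 0.98) and Rxrg (FDR 0.0105) were lost, and the call of Rxrg was also lost by limma-voom and with the exon length correction. Of the 16 regulators 6 were called without D21 EAM replicate 4, 4 without D15 EAM replicate 3 and 0 without any other library.

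**Figure D4:**
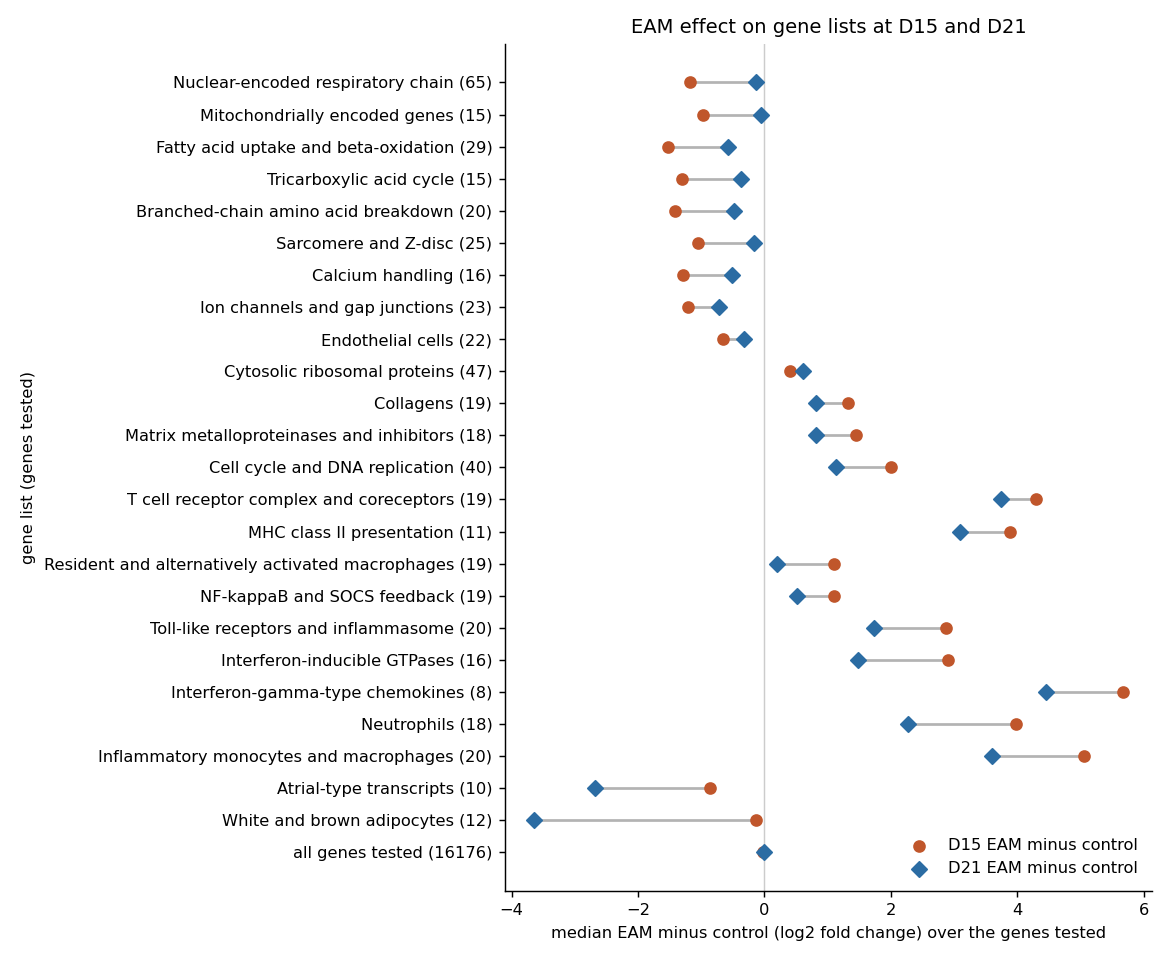
Median EAM minus control log2 fold change (x axis) at D15 (circles) and D21 (diamonds) of 24 gene lists and of all genes tested (y axis, with the number of genes tested). Mitochondrial, sarcomere and calcium handling lists lie nearer to 0 at D21, the inflammatory lists stay above 0 at a lower value, and the atrial and adipocyte lists lie farther below 0 at D21.

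Among contractile genes 3 rose, and 1 of these stood above controls at D21. Of 25 genes of the sarcomere and Z-disc, 3 were called higher (Acta1, Tnnc1 and Tpm1, against 1.82% of all genes), 13 had an FDR under 0.05 in that direction (16.6% of all genes) and 0 in the other, with a median of 0.88. The number called was 12 without D21 EAM replicate 4, 9 without D15 EAM replicate 3, 2 without D21 EAM replicate 1 and 1 without any of the other 13 libraries, and it was 2 with the exon length correction, 1 with total counts, and 9 by the likelihood ratio test or DESeq2. Tnnc1 was at 1462, 1567, 1438 and 1583 CPM in D15 controls, 683, 539, 887 and 648 CPM in D15 EAM hearts, 1336, 1404, 1283 and 1393 CPM in D21 controls and 1202, 1532, 1804 and 952 CPM in D21 EAM hearts. D15 EAM hearts lay below all others, and the D21 groups overlapped. The difference was 1.15 ± 0.26 (SE), FDR 0.00695, a call lost with the exon length correction and with total counts. Tpm1, α-tropomyosin, differed by 1.05 ± 0.24 (SE), FDR 0.00792, and its call was lost with the replicate block at D21 (FDR 0.0121).

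Acta1, skeletal α-actin, which the adult heart re-expresses under load, was the one above controls at D21. It was at 2248, 2101, 2285 and 2347 CPM in D15 controls and 1263, 1330.3, 1116 and 1737 CPM in D15 EAM hearts. It was at 1807, 1558, 2153 and 2299.8 CPM in D21 controls and 2602, 3436, 3615 and 3269.9 CPM in D21 EAM hearts, so the EAM hearts lay below all controls at D15 and above all controls at D21. The D15 effect was -0.72 (FDR 0.00165) and the D21 effect 0.73 (FDR 0.00393), with a difference of 1.45 ± 0.25 (SE), FDR 0.00257. This call remained with each of the 16 libraries left out. The myosin heavy chains Myh6 and Myh7 had differences of 0.69 (FDR 0.3999) and 0.29 (FDR 0.511).

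Calcium handling genes moved less evenly. Of 16, 2 were called higher and 1 lower, the last being the atrial Sln (1.82% and 0.983% of all genes), and 7 had an FDR under 0.05 for a higher effect (16.6% of all genes). The number called higher was 5 without D21 EAM replicate 4, 4 without D15 EAM replicate 3, 2 without D21 EAM replicate 1 and 0 without any of the other 13 libraries. It was 0 by limma-voom, 1 with total counts, and 4 by the likelihood ratio test or DESeq2. Casq2, cardiac calsequestrin, which binds calcium in the sarcoplasmic reticulum, was at 1033, 1030.1, 925 and 1105 CPM in D15 controls and 304, 244, 411 and 306 CPM in D15 EAM hearts. At D21 it was at 961, 973, 987 and 1057 CPM in controls and 699.8, 1047, 1072 and 432 CPM in EAM hearts, where replicates 2 and 3 reached the controls and replicates 1 and 4 did not. Its difference was 1.403 ± 0.32 (SE), FDR 0.00773. Triadin (Trdn), which anchors calsequestrin to the calcium release channel, differed by 1.06 ± 0.25 (SE), FDR 0.00842. Ryr2, the release channel, had a difference of 0.19 (FDR 0.718), and Atp2a2, the calcium pump, one of 0.80 (FDR 0.177). Fhl2, a LIM domain protein of the sarcomere, was called higher at 1.65 ± 0.37 (SE), FDR 0.00719. The calls of Casq2, Trdn and Fhl2 each held in 3 of the 16 fits with 1 library left out and were lost by limma-voom, and those of Casq2 and Fhl2 also with the exon length correction.

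Promoter stretches of 2 of these genes are shown because each holds a motif of a factor known from heart muscle, MEF2 in Casq2 and the estrogen-related receptor in Atp5g3, which encodes subunit c of ATP synthase (difference 1.05 ± 0.25 (SE), FDR 0.00985, a call lost with the replicate block at D21, FDR 0.0121). The motifs searched, on both strands of RefSeq promoter windows in GRCm38.p6 from 250 bases before to 50 after the start, were CTAAAAATA for MEF2 and TCAAGGTCA for the estrogen-related receptor. Both sequences read 5′ to 3′ on the strand of the gene, and capitals mark the motif, here on the opposite strand.
Casq2: ttgcatgattTATTTTTAGctcgaaacaac
Atp5g3: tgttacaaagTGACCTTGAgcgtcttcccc
The Casq2 stretch lies at chr3:102086337-102086366 on the plus strand and the Atp5g3 stretch at chr2:73911359-73911388 on the minus strand. MEF2 letters were in 1.34% of the 224 higher genes with a promoter (3 genes) and 0.455% of all 11639 tested genes with one. The receptor motif was in 1.34% (3 genes) and 0.301%. Such matches describe the windows and show no binding.

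**Figure D5:**
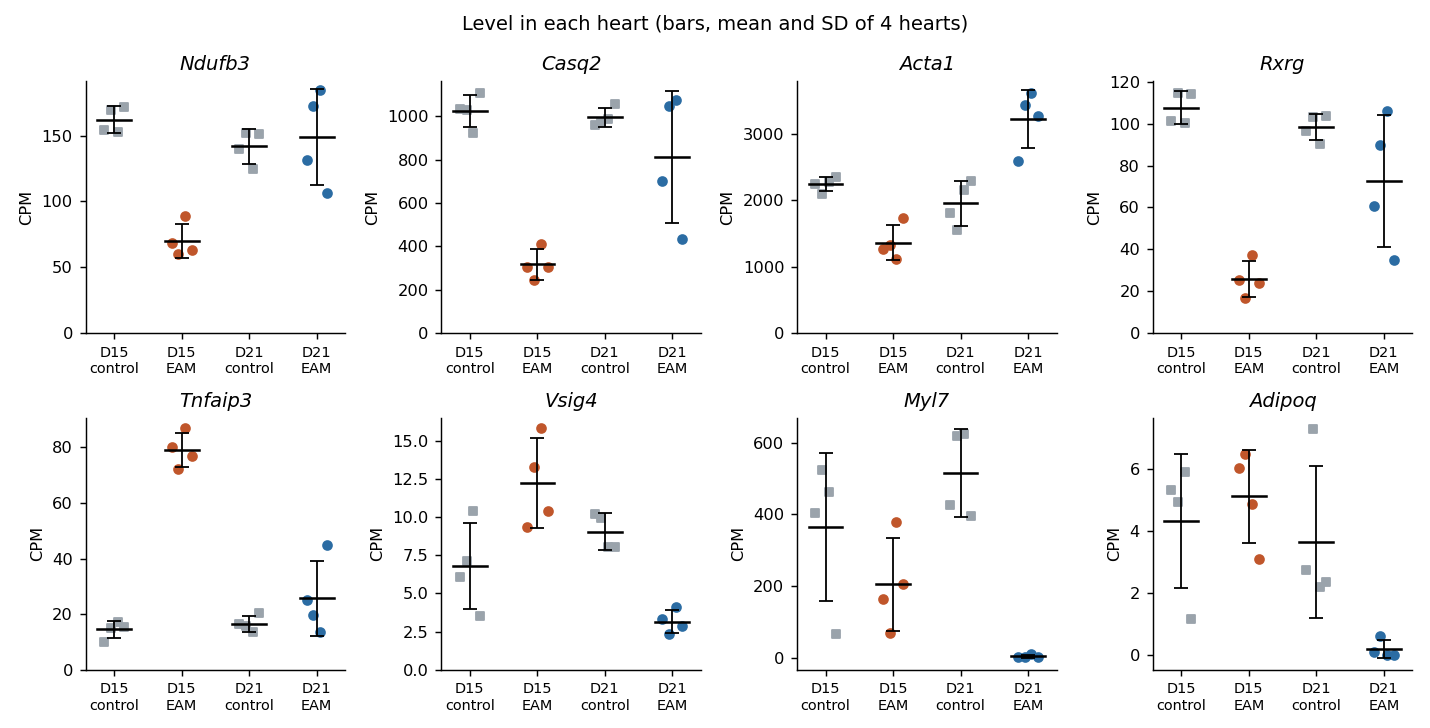
CPM (y axis) of 8 genes in each of the 4 hearts of the 4 groups (x axis), with bars for the mean and SD. D15 EAM hearts stand below their controls in Ndufb3, Casq2, Acta1 and Rxrg and above them in Tnfaip3, while D21 EAM hearts overlap their controls in Ndufb3, Casq2, Rxrg and Tnfaip3, stand above them in Acta1, and lie below them in Vsig4, Myl7 and Adipoq.

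Other genes with the largest higher differences, among those averaging 5 CPM or more, were of low to middle abundance. Lrrc10b (3.70), Cnga3 (2.49), Rbp7 (2.39), Klhdc8a (2.12), Rtn4r (2.09), Tpd52l1 (2.04) and the non-coding Gm13943 (2.45) rose. With the replicate block at D21 the calls of Lrrc10b (FDR 0.0125), Klhdc8a (FDR 0.0107) and Tpd52l1 (FDR 0.0103) were lost. These 3 calls and those of Rbp7 and Gm13943 were lost with the exon length correction, and those of Cnga3, Klhdc8a and Lrrc10b by limma-voom. With 1 library left out, the calls of Klhdc8a and Tpd52l1 held in 2 of 16 fits, Lrrc10b in 3, Gm13943 in 4, Cnga3 in 6, Rbp7 in 7 and Rtn4r in 14. Cpxm2, a carboxypeptidase-like protein, was at 24.5, 15.1, 23.1 and 22.9 CPM in D15 EAM and 45.7, 78.3, 96.4 and 43.6 CPM in D21 EAM hearts, against 49.0 to 54.0 CPM in D21 controls (difference 2.03 ± 0.31 (SE), FDR 0.00175). Acta2, smooth muscle α-actin, a marker of smooth muscle and myofibroblasts, was below controls at D15 (199 to 243 against 496 to 738 CPM) and overlapped them at D21 (275 to 791 against 635 to 683 CPM), with a difference of 1.36 ± 0.32 (SE), FDR 0.00932. This call held in 1 of the 16 fits that left out 1 library, the one without D21 EAM replicate 4. The Acta2 call was also lost by limma-voom, with the exon length correction, with total counts and with no filter on low counts. Tuba4a, an α-tubulin, and Syngr1, a vesicle membrane protein, rose by 1.24 and 1.27 log2 units, and the histone gene Hist1h4h by 1.39. It was the 1 called of 8 replication-dependent histone genes, whose messenger RNAs lack a poly(A) tail. All 8 had differences above 0 (median 0.70), and 4 had an FDR under 0.05 (16.6% of all genes). The labels do not say what the library code of the D21 EAM hearts stands for, and it cannot be told apart from their group. A link between the code and these genes was not tested. The call of Hist1h4h held in 2 of the 16 fits with 1 library left out and was lost with the exon length correction.

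The medians of inflammatory lists were above controls at both days and lower at D21, and few of their genes passed the limits. All 20 markers of inflammatory monocytes and macrophages had differences below 0 (median -1.74, from a D15 effect of 5.05 to a D21 effect of 3.59), and 6 had an FDR under 0.05 (11.5% of all genes). Nos2, the inducible nitric oxide synthase, was the 1 called (0.983% of all genes were). Its level was 30.4, 22.8, 27.9 and 27.3 CPM in D15 controls and 147, 217, 132 and 257 CPM in D15 EAM hearts. It was 30.1, 24.8, 37.9 and 34.6 CPM in D21 controls and 21.1, 32.0, 23.2 and 90.4 CPM in D21 EAM hearts, where only replicate 4 was above the controls. The difference was -2.41 ± 0.53 (SE), FDR 0.00680, a call that held in 3 of the 16 fits with 1 library left out and was lost with the exon length correction. Without D21 EAM replicate 4, 11 of the 20 were called, and 0 or 1 without any other library. By the likelihood ratio test or DESeq2 4 were called, and with the exon length correction 0. The summed level of the list was 2830.1 to 3886 CPM in D15 EAM and 262 to 2102 CPM in D21 EAM hearts, and 136 to 159.5 and 156 to 231 CPM in the controls of the same days.

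Among markers of resident and alternatively activated macrophages 5 fell. Of 19 tested, 5 were called lower (Vsig4, Cd163, Siglec1, Retnla and Igf1, against 0.983% of all genes) and 8 had an FDR under 0.05 (11.5% of all genes), with a median of -0.91. The number called was between 1 and 3 without any of the 8 control libraries or D15 EAM replicates 1 and 4 or D21 EAM replicate 2, and between 4 and 6 without the other 5. It was 3 by limma-voom or with the exon length correction. Vsig4, a complement receptor of tissue macrophages, was at 6.11, 7.11, 10.4 and 3.54 CPM in D15 controls and 9.33, 13.3, 15.8 and 10.4 CPM in D15 EAM hearts. At D21 it was at 10.2, 9.94, 8.03 and 8.04 CPM in controls and 3.32, 2.33, 4.09 and 2.87 CPM in EAM hearts, all 4 below all controls. The D15 effect was 0.84 and the D21 effect -1.53 (FDR 6.68e-04), a difference of -2.37 ± 0.38 (SE), FDR 0.00211. Cd163, a haemoglobin scavenger receptor, was at 35.1 to 59.9 CPM in D15 EAM, 17.6 to 22.8 CPM in D21 EAM and 30.3 to 36.02 CPM in D21 control hearts (difference -1.20 ± 0.23 (SE), FDR 0.00420). Siglec1, a sialic acid receptor of macrophages, differed by -1.22 ± 0.27 (SE), FDR 0.00645, a call lost with the exon length correction. Lyve1 and Timd4, which mark resident cardiac macrophages, had differences of -0.67 (FDR 0.0650) and -0.91 (FDR 0.173), and Cd209a had one of 1.11 (FDR 0.184).

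Among 19 genes of NF-κB and SOCS signalling, 2 were called lower (0.983% of all genes were), 6 had an FDR under 0.05 (11.5% of all genes) and 18 had differences below 0. The number called was 8 without D21 EAM replicate 4, where 841 of all 16176 genes were lower, and 1 or 2 without any other library. It was 1 with the exon length correction, where 63 of 16084 genes were lower. Tnfaip3, which encodes the NF-κB inhibitor A20, was at 10.1, 15.2, 17.2 and 15.5 CPM in D15 controls and 80.1, 72.2, 86.8 and 76.9 CPM in D15 EAM hearts, against 16.5, 15.6, 13.5 and 20.4 and 25.02, 19.5, 13.6 and 44.8 CPM at D21. The D15 groups lay far apart, and at D21 replicates 2 and 3 of EAM were within the range of controls (difference -1.80 ± 0.39 (SE), FDR 0.00600). The Tnfaip3 call held in 5 of the 16 fits with 1 library left out and was lost with the exon length correction. Rel, the NF-κB subunit c-Rel, was at 12.8, 9.65, 14.5 and 14.5 CPM in D15 EAM hearts, 6.88, 6.44, 6.95 and 7.71 CPM in D21 EAM hearts and 11.5, 11.1, 12.6 and 11.5 CPM in D21 controls. It was above controls at D15 (0.54) and below them at D21 (-0.74, FDR 4.94e-04), a difference of -1.27 ± 0.18 (SE), FDR 0.00171. Promoter stretches of both are shown because each holds the NF-κB core GGGNNTTCC on the opposite strand, in capitals.
Tnfaip3: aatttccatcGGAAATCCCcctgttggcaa
Rel: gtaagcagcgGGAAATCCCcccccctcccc
These RefSeq stretches (GRCm38.p6) lie on the minus strand at chr10:19015403-19015432 and chr11:23771041-23771070. The core was in promoters of 13.2% of 121 lower genes (16 genes), 6.70% of 224 higher genes and 8.35% of all 11639 genes. The interferon-stimulated response element GAAANNGAA was in 10.7% of the lower, 7.14% of the higher and 8.94% of all genes, and the gamma-activated site TTCNNNGAA in 9.09%, 7.14% and 8.37%.

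The medians of the chemokine, neutrophil, T cell receptor and MHC class II lists were below 0, and edgeR called 0 of their genes. The 8 interferon-gamma-type chemokine genes had a median difference of -1.37, the 7 neutrophil-attracting CXC chemokine genes -2.17, the 18 neutrophil markers -1.47, the 19 T cell receptor genes -0.52 and the 11 MHC class II genes -0.77. Unadjusted p-values under 0.05 for a lower effect were held by 2, 3, 4, 0 and 0 of these, beside 3133 of all 16176 genes. An FDR under 0.05 for a lower effect was held by 0, 1, 2, 0 and 0, beside 11.5% of all genes. The likelihood ratio test and DESeq2 each called 1 CXC chemokine gene and 1 neutrophil gene, limma-voom 0, and none of these tools called a gene of the other 3 lists. By edgeR the numbers called were 2, 2, 3, 0 and 0 without D21 EAM replicate 4, and 0 without any other library. Cxcl9, a chemokine for activated T cells, shows the spread. It was at 369, 280.3, 339 and 331 CPM in D15 EAM hearts and 101.5, 93.0, 18.8 and 328 CPM in D21 EAM hearts, against 2.70 to 3.57 CPM in D21 controls (difference -1.50 ± 0.80 (SE), FDR 0.166). Markers of B and plasma cells had a median of 0.56, with 6 of 15 below 0, and the median ran from -0.35 without D21 EAM replicate 1 to 1.16 without D15 EAM replicate 2.

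Toll-like receptor and inflammasome genes had differences below 0 in 20 of 20 (median -1.02), with 7 at an FDR under 0.05 (11.5% of all genes), and interferon-inducible GTPases in 16 of 16 (median -1.28), with 2. By edgeR's quasi-likelihood test 0 of either list were called, with 15 and 7 at an unadjusted p under 0.05 for a lower effect (3133 of all 16176 genes). The likelihood ratio test and DESeq2 each called 2 and 1, and limma-voom 0. Without D21 EAM replicate 4, 13 and 9 were called and the GTPase median was -2.06, and 0 were called without any other library. Cell cycle and DNA replication genes had differences below 0 in 39 of 40 (median -0.90), of which 14 had an FDR under 0.05 for a lower effect (11.5% of all genes) and 1, the replication licensing factor Cdt1, was called (0.983% of all genes were). Cdt1 was at 3.03, 2.65, 3.17 and 2.94 CPM in D15 controls and 13.7, 17.4, 11.9 and 16.7 CPM in D15 EAM hearts, and at 3.52, 3.48, 4.51 and 4.28 and 9.49, 7.05, 5.79 and 10.9 CPM at D21, above all controls at both days (difference -1.26 ± 0.27 (SE), FDR 0.00550). Without D21 EAM replicate 4, 22 of the 40 were called, and 0 or 1 without any other library, while the likelihood ratio test called 5 and DESeq2 6. The AP-1 genes Fosl2 (-1.10 ± 0.23 (SE), FDR 0.00507) and Fosb (-2.47 ± 0.59 (SE), FDR 0.00912) fell. They were the 2 called of 24 immediate early and heat shock genes (0.983% of all genes were), of which 9 had an FDR under 0.05 for a lower effect (11.5% of all genes) and 21 had differences below 0. In this list 8 were called without D21 EAM replicate 4 and between 0 and 3 without any other library. Both calls were lost with the exon length correction, and that of Fosb also by limma-voom and with the replicate block at D21 (FDR 0.0130).

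Beside the atrial Myl4 and Myl7, the most abundant genes that fell included Lrp1, Flna, Iqgap1, Dab2, Fbxl5 and Man2a1. Lrp1, an endocytic receptor with 17717 bases of exons, was at 157, 137, 179.9 and 187 CPM in D15 controls and 450.2, 583, 456 and 663 CPM in D15 EAM hearts, and at 258, 194, 223 and 237 and 242, 194, 229 and 342 CPM at D21. The D15 groups were separate and the D21 groups overlapped (difference -1.56 ± 0.24 (SE), FDR 0.00200). Flna, which crosslinks actin, differed by -1.24 ± 0.24 (SE), FDR 0.00414, Iqgap1, a scaffold of the actin cytoskeleton, by -1.23 ± 0.29 (SE), FDR 0.00846, Dab2, an endocytic adaptor, by -1.19 ± 0.27 (SE), FDR 0.00754, Fbxl5, which controls iron regulatory protein, by -1.16 ± 0.21 (SE), FDR 0.00334, and the Golgi mannosidase Man2a1 by -1.36 ± 0.25 (SE), FDR 0.00332. The calls of Flna, Iqgap1, Dab2 and Fbxl5, with 7342 to 16538 bases of exons, were lost with the exon length correction, and those of Iqgap1 and Dab2 held in 3 of the 16 fits with 1 library left out.

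Few matrix genes passed the limits. Of 19 collagen genes 18 had differences below 0 (median -0.72) and 2 had an FDR under 0.05, a share no higher than the 11.5% of all genes. By edgeR's quasi-likelihood test 0 were called and 6 had an unadjusted p under 0.05 for a lower effect (3133 of all 16176 genes). The likelihood ratio test, DESeq2 and limma-voom called 0. The number called was 3 without D21 EAM replicate 4, 1 without D15 EAM replicate 3 or D21 EAM replicate 1, and 0 without any other library. Col3a1 was at 6434, 6544, 3783 and 6907 CPM in D15 EAM and 5879, 3717, 1779 and 6490.1 CPM in D21 EAM hearts, all above the controls of their day (difference -0.72 ± 0.46 (SE), FDR 0.246). Comp, a cartilage oligomeric matrix protein, was near controls at D15 (0.07) and fell below them at D21, with 17.7, 16.3, 19.0 and 18.2 CPM in D21 controls and 3.67, 6.16, 2.66 and 3.04 CPM in D21 EAM hearts (difference -2.26 ± 0.39 (SE), FDR 0.00282). The metalloproteinase Adamts1 was at 117 to 151 CPM in D15 EAM, 56.2 to 84.1 CPM in D21 EAM and 49.8 to 72.7 CPM in D21 control hearts (difference -1.33 ± 0.25 (SE), FDR 0.00377).

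Among genes averaging 5 CPM or more, the 3 largest lower differences were in Bmp10, Sln and Myl7, transcripts typical of atrial muscle. Of 10 atrial-type genes tested, 4 were called lower (0.983% of all genes were), Nppa (atrial natriuretic peptide) had an FDR under 0.05 for a lower effect (difference -2.26) and Fam189a2 for a higher one (0.69). Bmp10, a growth factor made in the atria, was at 126, 161, 174 and 0.360 CPM in D15 control replicates 1 to 4 and 49.9, 52.2, 159 and 96.0 CPM in D15 EAM hearts. It was at 224, 221, 251 and 102 CPM in D21 controls and 0.151, 0.222, 0.0682 and 0.281 CPM in D21 EAM hearts, which held 13 reads in all. Myl7, the atrial regulatory light chain, was at 405, 525, 464 and 65.2 CPM in D15 controls, 164, 68.5, 378 and 207 CPM in D15 EAM hearts, 425, 618, 625 and 396 CPM in D21 controls and 0.653, 0.611, 10.98 and 0.506 CPM in D21 EAM hearts. All 4 D21 EAM hearts were below every other heart in both genes. The differences were -9.67 ± 1.59 (SE), FDR 0.00225, for Bmp10 and -6.58 ± 1.19 (SE), FDR 0.00332, for Myl7, and sizes this large rest on few reads in the D21 EAM hearts.

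By limma-voom 2 of the 10 were called, and the calls of Bmp10 and Sln were lost. Sln, sarcolipin, differed by -7.07 ± 1.03 (SE), FDR 0.00171, and Myl4, the atrial essential light chain, by -5.72 ± 0.94 (SE), FDR 0.00225. The other genes with the largest lower differences at a mean of 5 CPM or more, Mybphl (-6.42), Hamp (-6.002), Tmem163 (-5.01), Sbk3 (-4.87), Fgf12 (-4.77) and Cilp2 (-4.67), had D21 EAM values below all D21 controls, and all 6 calls were lost by limma-voom. D15 control replicate 4 was below its group in each of these 10 genes as well. Of all 159 lower genes, 21 were in that heart at under 1/3 of the lowest other D15 control, and 0 of the 295 higher genes. A low value in a D15 control moves the difference down by construction, and the share over all genes was not computed. Without it the atrial list had a median of -1.61 in place of -1.95, and the same number, 4, was called. The summed level of the 10 atrial-type genes was 1662 to 5190.2 CPM in D15 controls, 1491 to 3702 in D15 EAM hearts, 3950.4 to 5828 in D21 controls and 1245 to 1714 in D21 EAM hearts. The part that the sampled portion of the heart had in these values was not tested. Gja5, the connexin of atrial muscle, conduction tissue and arterial endothelium, was at 14.2 to 20.7 CPM in D21 EAM hearts and 32.7 to 47.9 CPM in D21 controls, with a difference of -1.29 ± 0.29 (SE), FDR 0.00701. D15 control replicate 4 was low for Gja5 too, at 15.5 CPM against 29.1 to 36.01 CPM in the other D15 controls. The Gja5 call held in 5 of the 16 fits with 1 library left out and was lost with the exon length correction.

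With the mean level of Myl7, Myl4, Sln and Bmp10 in each heart as a covariate, an alternative added after seeing the data, edgeR called 0 genes lower and 0 higher across all genes, with 5379 at an unadjusted p under 0.05 (6839 without the covariate). The median difference of the respiratory chain list was then 1.59, that of the adipocyte list -0.48 and that of the atrial list itself 1.28. No other tool was run with this covariate, and in each of the 4 genes the D21 EAM hearts were below every other heart.

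Among adipocyte genes 5 fell, at low levels. Of 12 tested, 5 were called lower (0.983% of all genes were) and 9 had an FDR under 0.05 for a lower effect (11.5% of all genes), with a median of -3.82, or -6.06 without D21 EAM replicate 2. The number called lower was 6 without D21 EAM replicate 2 or 4, 4 without D15 EAM replicate 3, and between 1 and 3 without any other library but D15 control replicate 4. It was 8 by the likelihood ratio test and 9 by DESeq2. Adipoq, the fat cell hormone adiponectin, was at 5.31, 4.94, 5.92 and 1.14 CPM in D15 controls, 6.02, 6.51, 4.86 and 3.11 CPM in D15 EAM hearts, 2.75, 7.29, 2.19 and 2.35 CPM in D21 controls and 0.100, 0.611, 0 and 0 CPM in D21 EAM hearts. The D21 EAM hearts were below all others, with 13 reads between them (difference -4.50 ± 0.96 (SE), FDR 0.00572), and a count of 3 reads, which 0 allows, stood for 0.107 to 0.205 CPM. Pck1, phosphoenolpyruvate carboxykinase, was at 2.59 to 7.20 CPM in D21 controls and held 3 reads in all 4 D21 EAM hearts against 323 in the D21 controls, a ratio of 0.0107 after scaling for library size (95% exact interval 0.00220 to 0.0316, counting error only). Its fitted difference of -5.91 (FDR 0.00175) depends on how the fit treats such low counts. Retn, resistin, differed by -4.00 ± 0.83 (SE), FDR 0.00493, Plin1, which coats lipid droplets, by -3.91, and Cidec, which fuses them, by -3.74. Cidea, a lipid droplet gene of brown fat, had a difference of 0.89 (FDR 0.0141). D15 control replicate 4 was the lowest D15 control for Adipoq, Pck1 and Retn too, and without it 4 of the 12 were called. The part of fat on the sampled tissue was not tested.

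For some genes the EAM effects of both days lay close together. Tead1, a cardiac transcription factor, had effects of -0.84 at D15 and -0.87 at D21, a difference of -0.03 ± 0.18 (SE), FDR 0.925. Chrm2, the cardiac muscarinic receptor, had effects of -0.81 and -0.75 (difference 0.07 ± 0.27 (SE), FDR 0.868), and Atf4, a stress-response factor, 0.54 and 0.48 (difference -0.06 ± 0.10 (SE), FDR 0.679). Cytosolic ribosomal protein genes had a median difference of 0.21, or 0.01 with the exon length correction, and 44 of 47 had differences above 0. By edgeR's quasi-likelihood test 0 of the 47 were called, with 7 at an unadjusted p under 0.05 for a higher effect (3706 of all 16176 genes). The likelihood ratio test, DESeq2 and limma-voom called 0. Resident fibroblast markers had a median of -0.07 over 15 genes, with the actin-severing Gsn at -1.38 and -1.18 (difference 0.21 ± 0.47 (SE), FDR 0.764). Of these 15 edgeR called 1 lower without D21 EAM replicate 4.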

How the data were processed

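RNA from 24 mouse hearts was sequenced, of which the 16 of D15 and D21 were analysed (4 each of control and EAM per day, grouped by title). Per the labels and the study's methods, the authors aligned reads with HISAT2 2.0.4 to GRCm38 and counted them per Ensembl gene with featureCounts, with Picard also named, and deposited raw counts. The sources used here do not say whether counting used strand, so overlapping and antisense genes could not be told apart. The 92 spike-in rows held 0 reads and were left out. Symbols were matched for 40254 of 41388 genes, and sequences came from RefSeq promoters (11639 of the tested genes).

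Genes that reached 10 reads in 4 or more of the 16 hearts were tested with edgeR 4.0.16 (quasi-likelihood F test, TMM, a term per group, R 4.3.3) for the difference of the EAM effect between days. Benjamini-Hochberg FDR under 0.01 and a fold of at least 2 called a gene, and an FDR under 0.05 without a fold limit was also given. CPM used TMM-scaled totals, and per-heart medians log2(CPM + 1) with a pseudocount of 1. The p-values set each difference against the spread between hearts within groups. That spread does not cover the library code of the D21 EAM group. Scripts were tested on simulated data, and DESeq2 1.42.0, limma 3.58.1 (voom), other scalings and filters, and leaving out each library were alternatives. The corrections for exon length and atrial transcripts and the block at D21 alone were chosen after seeing the data.

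The genes, the 59 lists and the tests were chosen with earlier results of these data known. Named were the 10 largest called differences per direction among those averaging 5 CPM or more, the 8 most abundant called genes per direction, up to 3 called members per list or else its most abundant member, and Ptprc, 98 genes with 60 called, of which 1 is not reported here. Others named (Serpinb1c, Ifi27l2b and list members given as examples) were chosen after their values were seen. Correlations of the deviations of same-numbered control and EAM hearts were 0.04, -0.09, -0.03 and -0.11 at D15 and 0.10, 0.17, 0.31 and 0.25 at D21. Every pair was thus over 0.1 at D21 only, as a hint from the data. Hearts of unlike number were not compared, and the labels give no pairing.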

Additional observations from a re-analysis of the deposited data

Results flagged for a closer look

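Single hearts stood far from the other 3 of their group in 12 of 172 groups of 4 hearts examined, where the gap to the nearest heart on the log2(CPM + 1) scale, divided by the range of the group, was over Dixon's 95% critical value for 4 samples. Chance alone gives about 1 such group in 20. D15 control replicate 4 was the one concerned in 6 of the 12, always as the lowest heart, with a share of 0.933 for Bmp10, 0.897 for Sln, 0.875 for Myl7, 0.868 for Myl4, 0.870 for Adipoq and 0.949 for Retn. D21 control replicate 4 was the lowest for Bmp10 (0.858). D21 EAM replicate 3 was the highest for Myl7 (0.955) and Myl4 (0.843), and D21 control replicate 2 the highest for Adipoq (0.831). D15 EAM replicate 3 was the lowest for Col3a1 (0.882) and D15 EAM replicate 2 the lowest for Cpxm2 (0.858).

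Of the 98 genes chosen by the naming rule, 60 passed the limits in the test of the difference, and 59 of these are given here. The rule takes called genes first, so this number follows from the rule. Of all genes tested, 0.983% were called lower and 1.82% higher. Among lower genes of the atrial-type list the log2 differences were -9.67 for Bmp10, -7.07 for Sln, -6.58 for Myl7 and -5.72 for Myl4. Outside that list they were -6.42 for Mybphl, -6.002 for Hamp, -5.01 for Tmem163, -4.87 for Sbk3, -4.77 for Fgf12, -4.67 for Cilp2 and -1.29 for Gja5. They were -5.91 for Pck1, -4.50 for Adipoq and -4.00 for Retn among adipocyte genes. Among macrophage, NF-κB, AP-1 and cell cycle genes they were -2.41 for Nos2, -2.37 for Vsig4, -1.20 for Cd163, -1.22 for Siglec1, -1.80 for Tnfaip3, -1.27 for Rel, -2.47 for Fosb, -1.10 for Fosl2 and -1.26 for Cdt1. Other lower genes were Comp (-2.26), Lrp1 (-1.56), Man2a1 (-1.36), Adamts1 (-1.33), Flna (-1.24), Iqgap1 (-1.23), Dab2 (-1.19) and Fbxl5 (-1.16).

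Among higher genes of energy metabolism the differences were 1.28 for Ndufb3, 1.13 for Ndufb6, 1.03 for Atp5l, 1.05 for Atp5g3, 2.35 for Ucp3, 1.35 for Acot13, 1.35 for Fabp3, 1.33 for Hibch, 1.004 for Hsd17b10 and 1.63 for Rxrg. Muscle genes were at 1.45 for Acta1, 1.65 for Fhl2, 1.403 for Casq2, 1.36 for Acta2, 1.15 for Tnnc1, 1.06 for Trdn and 1.05 for Tpm1. The remaining higher genes were Lrrc10b (3.70), Cnga3 (2.49), Gm13943 (2.45), Rbp7 (2.39), Klhdc8a (2.12), Rtn4r (2.09), Tpd52l1 (2.04), Cpxm2 (2.03), Hist1h4h (1.39), Syngr1 (1.27) and Tuba4a (1.24).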

How the results depend on the processing

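Against the 159 lower and 295 higher genes called, total counts gave 252 and 154, the likelihood ratio test 346 and 571, and DESeq2's Wald test 341 and 535. With no filter on low counts 166 were higher, and with all 24 hearts in the fit 468 were higher. With 1 library left out, between 40 and 841 genes were lower and between 49 and 1074 higher. An exon length correction gave 63 and 91, and the atrial covariate 0 and 0, with 5379 genes at an unadjusted p under 0.05 and 1 at an FDR under 0.05. At other limits, 575 and 913 genes had an FDR under 0.01 with no fold limit, and 1865 and 2689 an FDR under 0.05. The causes were not tested, beyond the fewer hearts or looser limits by construction.

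With the replicate block within each day 0 genes were lower and 0 higher by edgeR, with 6980 at an unadjusted p under 0.05 and 4329 at an FDR under 0.05 (6839 and 4554 without a block). With the replicate block at D21 only, chosen after seeing the data, 483 were lower and 283 higher, and 10 of the 60 named calls were lost (Lrrc10b, Ucp3, Klhdc8a, Tpd52l1, Tpm1, Fabp3, Atp5g3, Hsd17b10, Rxrg and Fosb). No other tool was run with a block.

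Of the 60 named calls, 28 were lost with the exon length correction (Acot13, Acta2, Atp5g3, Casq2, Dab2, Fabp3, Fbxl5, Fhl2, Flna, Fosb, Fosl2, Gja5, Gm13943, Hist1h4h, Hsd17b10, Iqgap1, Klhdc8a, Lrrc10b, Ndufb3, Ndufb6, Nos2, Rbp7, Rxrg, Siglec1, Tnfaip3, Tnnc1, Tpd52l1 and Ucp3). By limma-voom 20 were lost (Acta2, Atp5g3, Bmp10, Casq2, Cilp2, Cnga3, Fabp3, Fgf12, Fhl2, Fosb, Hamp, Klhdc8a, Lrrc10b, Mybphl, Rxrg, Sbk3, Sln, Tmem163, Trdn and Ucp3). With no filter on low counts 14 were lost (Acta2, Atp5g3, Casq2, Dab2, Fabp3, Fosb, Hsd17b10, Iqgap1, Klhdc8a, Lrrc10b, Rxrg, Tpd52l1, Trdn and Ucp3), and with total counts 10 (Acta2, Atp5g3, Atp5l, Fabp3, Hsd17b10, Ndufb6, Tnnc1, Tpm1, Trdn and Ucp3). The replicate block within each day and the atrial covariate left 0 calls. The other tools, filters, scalings and sample sets that kept all 16 hearts lost 0, 1 or 2, and the stricter filter did not test 2 more. Of the 60, 15 held with each library left out in turn (Bmp10, Sln, Myl7, Mybphl, Hamp, Myl4, Lrp1, Fbxl5, Cpxm2, Acta1, Vsig4, Rel, Comp, Ndufb3 and Pck1), 15 held in 8 to 15 of the 16 fits and 30 in fewer than 8. Of the 30, Acta2 held in 1, Tpd52l1, Fabp3, Tpm1, Ucp3, Klhdc8a, Hist1h4h, Atp5g3, Rxrg and Hsd17b10 in 2, and Fhl2, Trdn, Tnnc1, Lrrc10b, Iqgap1, Dab2, Fosb, Nos2 and Casq2 in 3. The atrial covariate is made from Myl7, Myl4, Sln and Bmp10, so it cannot test these 4 genes. In each of them the D21 EAM hearts were below every other heart, so the covariate also nearly marks that group. With the atrial covariate the sign turned for Bmp10 (0.43), Myl4 (0.025), Tmem163 (2.35), Sbk3 (1.45), Fgf12 (1.56), Cilp2 (1.01) and Gja5 (0.069), and among genes not called for Ctsd (-0.48), Rpl4 (-0.058) and Tead1 (0.59). Exon length correction turned Tead1 (0.21) and Rpl4 (-0.017), and total counts turned Chrm2 (-0.088). Tead1 was also above 0 without D15 EAM replicate 3 (0.067), D15 EAM replicate 4 (0.00023), D21 control replicate 3 (0.02) or D21 EAM replicate 1 (0.068), and at its lowest (-0.15) without D21 EAM replicate 3. Chrm2 was below 0 without D15 EAM replicate 2 (-0.058) or D21 EAM replicate 3 (-0.11) and at its highest (0.28) without D15 EAM replicate 3, and Gsn ran from -0.084 without D21 EAM replicate 3 to 0.57 without D15 EAM replicate 3. Depth limits the lowest genes, since 3 reads stood for 0.107 to 0.205 CPM.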

Other observations

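Genes of glycolysis and lactate handling had differences on both sides of 0, with 2 of 25 at an FDR under 0.05 for a lower EAM effect at D21 and 11 for a higher one, beside 11.5% and 16.6% of all genes. The lower ones were Eno1, the broadly expressed enolase (-0.77, FDR 0.0139), and Pfkfb3, a regulator of phosphofructokinase (-1.33, FDR 0.0152). Among the higher ones, Eno3, the muscle enolase, had a difference of 1.60 (FDR 0.0142), Ldhb, the lactate dehydrogenase subunit typical of heart, one of 1.27 (FDR 0.0282), and Slc2a4, the insulin-regulated glucose transporter, one of 1.36 (FDR 0.0242). By edgeR's quasi-likelihood test 0 of the 25 passed both limits, against 4 by the likelihood ratio test, 4 by DESeq2 and 0 by limma-voom. By edgeR 18 had an unadjusted p under 0.05 (5 lower, 13 higher), beside 3133 lower and 3706 higher of all 16176 genes. With 1 library left out edgeR called 4 lower and 5 higher without D21 EAM replicate 4, 4 higher without D15 EAM replicate 3, and 0 otherwise.

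Endothelial genes likewise had differences on both sides of 0, with 3 of 22 at an FDR under 0.05 for a lower effect and 4 for a higher one, shares close to the 11.5% and 16.6% of all genes. The adhesion molecules Vcam1 (-1.13, FDR 0.0278) and Icam1 (-1.24, FDR 0.0302) and the Tie2 ligand Angpt2 (-1.14, FDR 0.0116) were lower at an FDR under 0.05, and the tight junction gene Cldn5 (1.04, FDR 0.0157) and the fatty acid binding protein Fabp4 (1.003, FDR 0.0141) higher. Pecam1 and Cdh5, which mark endothelium in general, had differences of 0.03 (FDR 0.889) and 0.10 (FDR 0.767). By edgeR's quasi-likelihood test 0 of 22 passed both limits, with 5 lower and 5 higher at an unadjusted p under 0.05. Of all 16176 genes, 3133 were lower and 3706 higher at this unadjusted limit. The likelihood ratio test called 1 lower and 2 higher, DESeq2 1 and 1, and limma-voom 0. Leaving out D21 EAM replicate 4, edgeR called 4 lower and 2 higher, leaving out D15 EAM replicate 3 it called 1 lower, and leaving out any other library 0.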
